A study of Rattus norvegicus with 8 samples.

Results

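Fibrinogen and 5 further acute-phase protein genes were followed in rat kidney grafts 24 h after transplantation: Fga, Fgb and Fgg, which encode the chains of fibrinogen, and A2m, Cp, Hp, Lbp and Orm1. The 8 genes were chosen by name, through the gene name or RefSeq accession that the array files give for each probe, and 14 of 41012 probes stood for them. Kidneys of Dark Agouti rats were cooled for 25 min at 4 °C and placed in male Lewis rats whose own kidneys had been removed, and total RNA of the graft was hybridised to 1-colour Agilent arrays. The donor and recipient strains differ at the major histocompatibility complex, so every graft in every group was an allograft. Each of 4 groups had 2 arrays, and the labels do not say whether these came from separate animals.

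In the high group the donor was 20 to 50% lighter than the recipient and the recipient got no drug. In the low group the donor was 0 to 20% lighter, again with no drug. The anti-IL6R group had the high weight difference and a single intravenous injection of 500 µg of a neutralising antibody against the interleukin-6 receptor, given right after surgery. The prednisolone group had the high weight difference and a single intravenous dose of 15 mg/kg prednisolone, a synthetic glucocorticoid, at the same time. The labels give neither group a control injection, and no kidney taken before transplantation is analysed here. The study's title asks about donor and recipient weight and a role of IL-6 signalling, which is the question that these comparisons address.

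Acute-phase proteins are plasma proteins whose synthesis shifts during injury and infection, most of them made by hepatocytes. Interleukin-6 and its relatives bind a receptor that contains gp130 and activate STAT3, which with C/EBP factors drives the fibrinogen genes and A2m in the rat liver, while glucocorticoids act as co-inducers of several of these genes. Epithelial cells outside the liver, injured kidney tubules among them, also transcribe fibrinogen.

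In RefSeq (assembly GRCr8) Fgg, Fga and Fgb are consecutive genes on chromosome 2, and Fgb is read from the opposite strand to the others. Cp also lies on chromosome 2, Lbp on chromosome 3, A2m on chromosome 4, Orm1 on chromosome 5 and Hp on chromosome 19. RefSeq promoter windows of 300 bases were found for 5 of the 8 genes, Fga, Fgb, Fgg, Cp and Orm1. The 250 bases before the annotated start are shown for the fibrinogen genes, because these genes sit side by side and their levels were correlated across arrays, with matches to any of 5 motifs in capitals. The windows are chr2:170652833-170653082 on the forward strand for Fgg, chr2:170671919-170672168 on the forward strand for Fga and chr2:170700876-170701125 on the reverse strand for Fgb.
Fgg: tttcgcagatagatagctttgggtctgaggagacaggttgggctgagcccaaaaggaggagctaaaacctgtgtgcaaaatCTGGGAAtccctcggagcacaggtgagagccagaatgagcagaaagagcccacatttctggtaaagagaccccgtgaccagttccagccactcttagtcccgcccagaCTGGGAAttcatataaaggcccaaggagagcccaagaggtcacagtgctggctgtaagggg
Fga: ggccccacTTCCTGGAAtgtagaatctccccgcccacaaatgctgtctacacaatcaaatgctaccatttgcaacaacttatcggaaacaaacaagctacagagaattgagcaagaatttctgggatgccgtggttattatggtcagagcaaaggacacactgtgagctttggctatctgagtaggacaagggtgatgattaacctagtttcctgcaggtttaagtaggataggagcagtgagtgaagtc
Fgb: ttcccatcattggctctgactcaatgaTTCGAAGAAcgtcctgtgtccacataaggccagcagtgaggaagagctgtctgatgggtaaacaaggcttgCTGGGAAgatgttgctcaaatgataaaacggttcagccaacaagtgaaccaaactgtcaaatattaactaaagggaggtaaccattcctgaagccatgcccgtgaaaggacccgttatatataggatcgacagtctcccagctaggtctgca

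The motifs were searched on both strands of the whole windows. CTGGGAA, the type II IL-6 response element known from rat acute-phase promoters, occurred at positions -169 and -61 of Fgg and at position -152 of Fgb, counted from the annotated start, and 11.3% of all 33469 promoter windows held it. TTCNNNGAA, the spaced palindrome bound by STAT factors, occurred as TTCCTGGAA at position -242 of Fga and as TTCGAAGAA at position -223 of Fgb, and 8.87% of all windows held it. The C/EBP motif TTNNGCAAT (2.33% of windows), the NF-kB motif GGGNNTTCC (5.92%) and the HNF1 motif (0.00299%) had no match in the windows of these 5 genes, and Cp and Orm1 held none of the 5 motifs. No 2 matches overlapped. These are matches of letters only. Fga also has a second RefSeq start within the first window, whose own window begins past the match at position -242 and holds none of the motifs.

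Levels are log2 signals minus the 75th percentile of the array's probes, so 0 is the signal at that percentile. They serve to compare arrays for a probe, not probes with each other. Of the 8 genes, 7 could be tested. The probe of Orm1, which encodes alpha-1-acid glycoprotein, was not well above background on any array (0 of 8), so no fold is given for it. The probes of Fga, Fgb, Fgg, A2m, Cp, Hp and Lbp that represent these genes were well above background on all 8 arrays, and no spot of any member was saturated.

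Fga encodes the alpha chain of fibrinogen. Its log2 level was 5.66 and 8.21 on the high arrays, 4.06 and 5.62 on the low arrays, 4.47 and 3.86 on the anti-IL6R arrays and 4.50 and 2.83 on the prednisolone arrays. Both high arrays stood above all 6 others, by a narrow margin for high replicate 1, and the second prednisolone array was the lowest. From the lowest to the highest array Fga spanned 41.6-fold.

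Fgb encodes the beta chain. Its log2 level was 5.73 and 8.30 in high grafts, 3.62 and 5.37 in low grafts, 4.21 and 4.41 in anti-IL6R grafts and 5.57 and 1.55 in prednisolone grafts. The order resembled that of Fga: both high arrays were on top, high replicate 2 far above the rest, but the first prednisolone array came close to high replicate 1. The 2 prednisolone arrays differed from each other by 16.2-fold, whereas the 2 anti-IL6R arrays differed by 1.14-fold. Across all arrays the span was 107-fold, and the other 2 probes of Fgb, which kept the same highest and lowest array, spanned 208-fold and 859-fold, the last with the second prednisolone array not well above background.

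Fgg encodes the gamma chain. Its log2 level was 1.13 and 4.22 in high grafts, -0.09 and 2.19 in low grafts, 1.01 and 1.50 in anti-IL6R grafts and 0.78 and -2.24 in prednisolone grafts, an 87.8-fold span. High replicate 2 was again the highest and prednisolone replicate 2 the lowest, but high replicate 1 lay below the second low array and the second anti-IL6R array, so only high and prednisolone did not overlap among the comparisons with the high group. A second Fgg probe, left out of the tests because its spot was flagged on high replicate 2, ran in parallel on the other 7 arrays, from 1.30 on the second low array to -3.33 on the second prednisolone array.

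**Figure D1:**
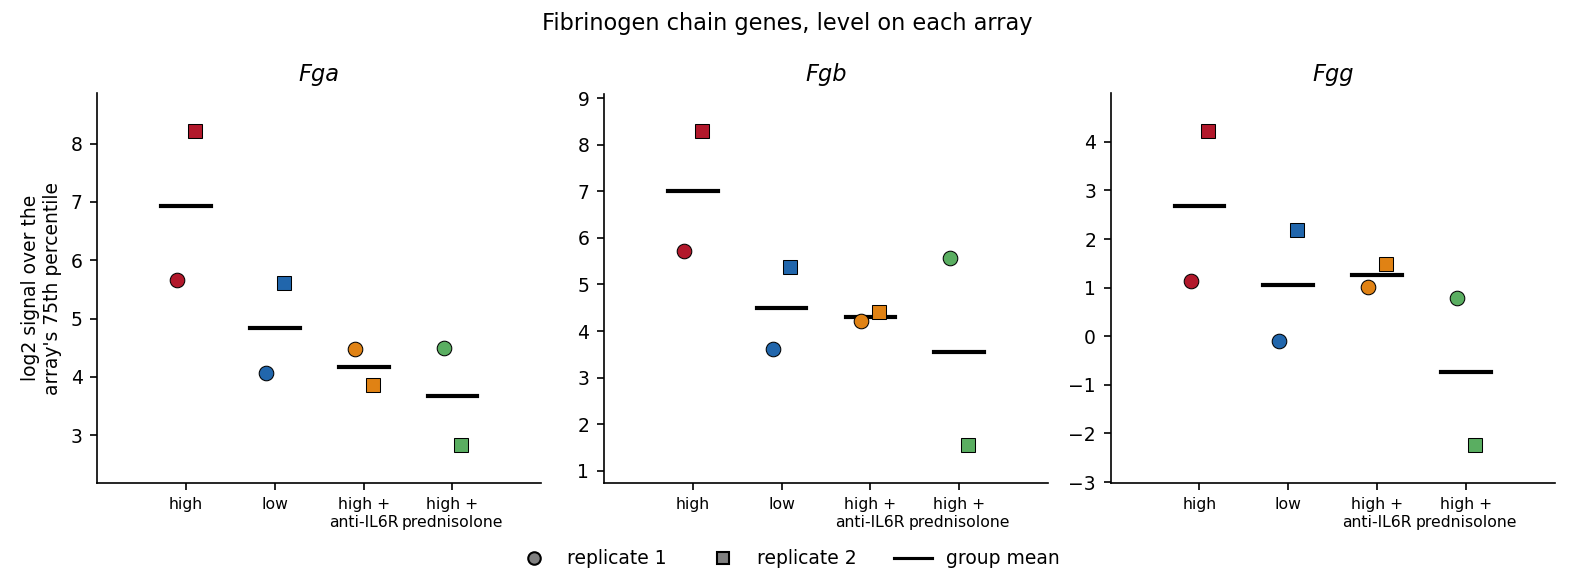
Log2 signal of Fga, Fgb and Fgg over the 75th percentile of each array (vertical axis, a separate scale for each gene) in the 4 groups, with a circle for replicate 1, a square for replicate 2 and a line at the group mean. High replicate 2 is the highest and prednisolone replicate 2 the lowest array for all 3 genes, and the anti-IL6R arrays lie close together.

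The fibrinogen genes were among the most variable genes of the grafts. The pooled SD between arrays of a group was 1.23 for Fga, 1.80 for Fgb and 1.74 for Fgg in log2 units, against a median of 0.28 over all 24462 genes tested, and their span over the 8 arrays lay at the 99.6th percentile of genes for Fga and the 99.8th for both Fgb and Fgg. The mean of the 3 genes was 4.17 and 6.91 in high, 2.53 and 4.39 in low, 3.23 and 3.25 in anti-IL6R and 3.62 and 0.72 in prednisolone grafts. The arrays at both ends of that order, high replicate 2 and prednisolone replicate 2, were also those with the fewest spots well above background, 65.3% and 64.5% against 66.5 to 74.0% on the other 6; the part of this in the fibrinogen levels was not tested. Plrg1, a splicing factor gene that is the nearest gene beyond Fgb with a tested probe, stayed between 2.75 and 3.30 on all arrays.

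A2m encodes alpha-2-macroglobulin, a broad protease inhibitor and in the rat a classical target of IL-6. It stood at 1.95 and 1.07 in high, -1.25 and 0.87 in low, 1.07 and 1.27 in anti-IL6R and -0.16 and -1.82 in prednisolone grafts, a 13.7-fold span. Both high arrays were above both low arrays, the anti-IL6R arrays lay between the 2 high arrays, and the prednisolone arrays were below all high and anti-IL6R arrays and overlapped the low ones. Within the low group the 2 arrays differed by 4.34-fold.

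Lbp encodes the lipopolysaccharide-binding protein, which hands bacterial lipid A to CD14. Its level was -2.00 and -1.39 in high, -2.86 and -1.97 in low, -1.69 and -1.88 in anti-IL6R and -2.31 and -3.82 in prednisolone grafts. High and low touched, since the second low array was just above high replicate 1, while both prednisolone arrays were below all high and anti-IL6R arrays. The extremes were the same arrays as for fibrinogen, with a 5.37-fold span.

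Cp encodes ceruloplasmin, the copper-carrying ferroxidase of plasma. Its order was another one: -2.31 and -2.93 in high, -1.94 and -1.17 in low, -0.52 and -1.12 in anti-IL6R and -1.71 and -2.44 in prednisolone grafts. High replicate 2, the highest array for fibrinogen, was the lowest for Cp, and both anti-IL6R arrays were above all others, the second by a narrow margin. The array has 4 probes for Cp. The 2 further tested probes gave the same direction as the first in all 6 comparisons. On 1 of these the second anti-IL6R array (-1.66) lay below the second low array (-1.57). The probe left untested, whose description in the files is a bilitranslocase transcript, was well above background on 2 arrays.

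Hp encodes haptoglobin, which binds free haemoglobin. Its levels were the most even of the set, -2.76 and -2.47 in high, -2.89 and -3.12 in low, -2.76 and -2.84 in anti-IL6R and -1.71 and -2.87 in prednisolone grafts. The first prednisolone array stood about 1 log2 unit above most others, and the remaining 7 arrays lay within -2.47 to -3.12.

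**Figure D2:**
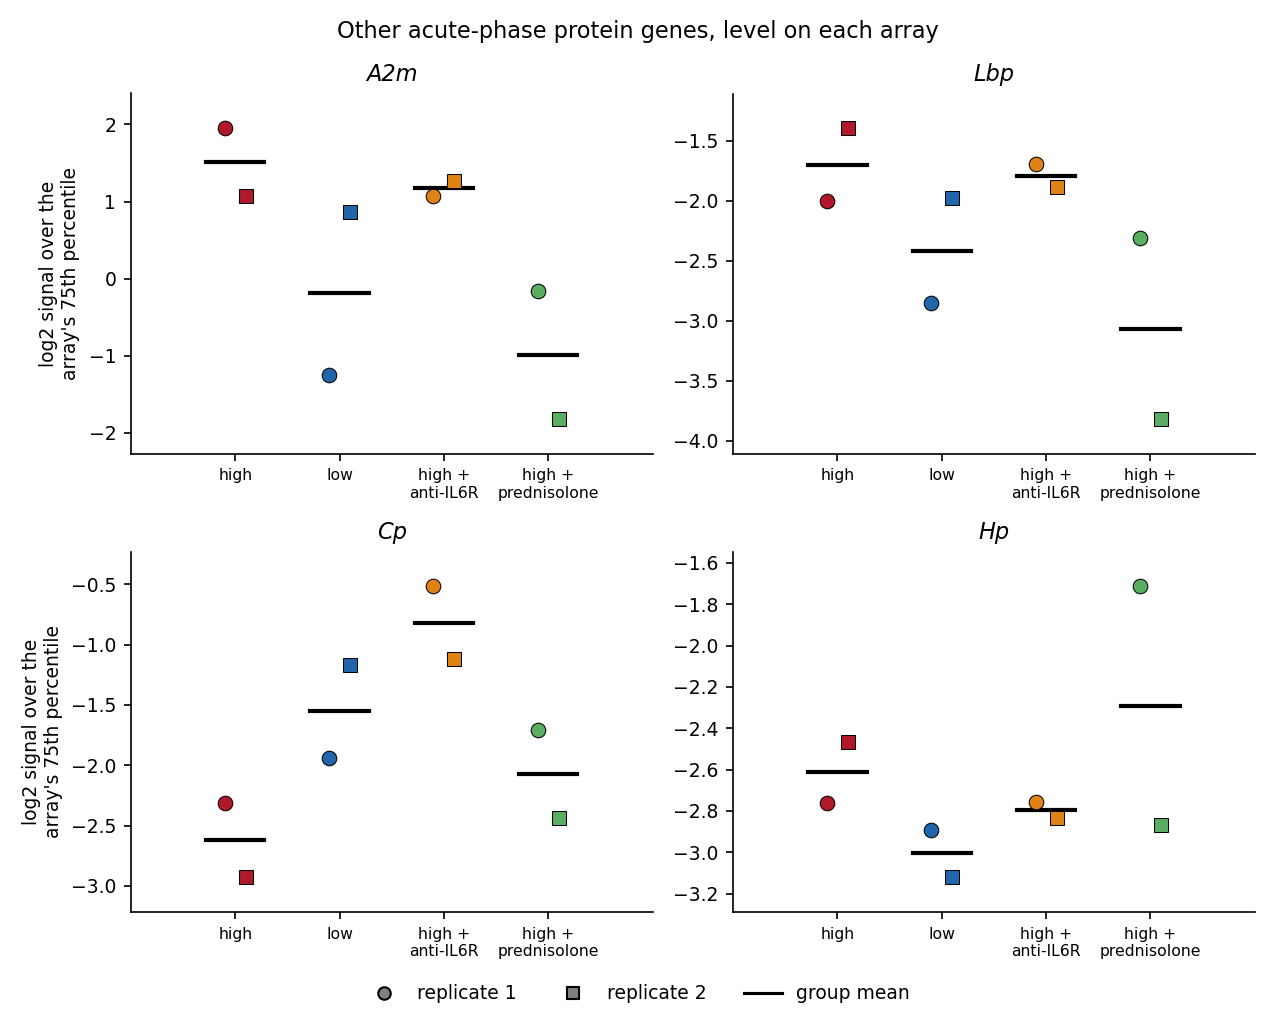
Log2 signal of A2m, Lbp, Cp and Hp over the 75th percentile of each array (vertical axis, a separate scale for each gene) in the 4 groups, with a circle for replicate 1, a square for replicate 2 and a line at the group mean. A2m and Lbp are lowest in the second prednisolone array (-1.82 and -3.82), Cp is highest in the anti-IL6R arrays (-0.52 and -1.12), and Hp is high only in the first prednisolone array (-1.71).

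By design high and low grafts differed in how donor and recipient weight matched, and their arrays shared a slide. Every tested member but Cp had a higher mean in the high grafts. Fga was higher by 2.10 ± 0.99 (log2 difference ± SE, n = 2 arrays a group), a 4.28-fold ratio, Fgb by 2.52 ± 1.43 and Fgg by 1.63 ± 1.38. A2m was higher by 1.70 ± 0.81, Lbp by 0.72 ± 0.54 and Hp by 0.39 ± 0.38, and Cp differed by -1.07 ± 0.42. In bulk RNA, a difference in the number of cells that transcribe a gene and a difference in RNA per cell cannot be told apart.

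No member passed the threshold in high minus low: limma's adjusted p was 0.364 for Fga, 0.421 for Fgb, 0.561 for Fgg, 0.369 for A2m, 0.328 for Cp, 0.604 for Hp and 0.518 for Lbp. No gene of the 24462 was called by limma at an adjusted p under 0.05 (0% of genes), while 3589 (14.7%) had an unadjusted p under 0.05, Cp among them at 0.0404. The arrays of the groups did not overlap for Fga, Fgb, A2m and Hp, higher in high, which is 4 of 7 members where 33.5% of all genes did so, and for Cp, lower, 1 of 7 members where 23% of all genes did so. The median difference of the 7 members was 1.63, against 0.07 over all genes, and 6 of 7 were above 0, against 56.0% of all genes. The size rested on 1 array. Without high replicate 2 Fga differed by 0.82 and Fgg by 0.08, and the median of the fibrinogen genes went from 2.10 to 0.82.

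Anti-IL6R and high grafts both came from light donors and differed in the antibody. Fga was lower in the antibody group by a log2 difference of -2.77 ± 0.99 (adjusted p = 0.247, limma), Fgb by -2.70 ± 1.43 (0.360) and Fgg by -1.42 ± 1.38 (0.600). A2m, Lbp and Hp showed small differences with overlapping arrays, of -0.34 ± 0.81, -0.09 ± 0.54 and -0.18 ± 0.38. Cp was higher by 1.80 ± 0.42, a 3.48-fold ratio, the largest difference of any member here relative to its SE. Its unadjusted p was 0.00426 and its adjusted p 0.198 in limma, from 0.0921 to 0.666 over the alternatives, and its other 2 tested probes gave 1.98 and 1.73.

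Arrays did not overlap for Fga and Fgb, lower in anti-IL6R grafts, 2 of 7 members against 36.3% of all genes, and for Cp, higher, 1 of 7 members against 23.5% of all genes. With limma 0 genes (0%) were called and 4333 (17.7%) had an unadjusted p under 0.05, Fga at 0.0290 and Cp among them. The member median was -0.34 and the median over all genes -0.09. Each untreated group was hybridised on a first slide and each treated group on a second, so in this and in every other comparison of a treated with an untreated group, slide and treatment cannot be told apart. The fibrinogen difference again leaned on high replicate 2, without which the fibrinogen median was -1.42 and Fgg stood at 0.12.

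In prednisolone against high grafts the fibrinogen genes had their largest differences, -3.27 ± 0.99 for Fga, -3.45 ± 1.43 for Fgb and -3.40 ± 1.38 for Fgg, or 9.65-, 10.9- and 10.6-fold lower means. A2m was lower by a log2 difference of -2.50 ± 0.81 and Lbp by -1.37 ± 0.54. Cp and Hp, at 0.54 ± 0.42 and 0.32 ± 0.38, overlapped between the groups. The limma adjusted p ran from 0.356 for Fga to 0.736 for Hp.

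Fga, Fgb, Fgg, A2m and Lbp did not overlap, all lower in prednisolone grafts, which is 5 of 7 members where 25% of all genes were lower without overlap and 13.9% higher. Again 0 genes (0%) were called by limma, with 2893 (11.8%) at an unadjusted p under 0.05, among them Fga (0.0148), A2m (0.0202), Lbp (0.0431) and Fgg (0.0469). The member median was -2.50, against -0.08 over all genes. The prednisolone arrays were the pair least alike, with a correlation of 0.956 over genes against 0.981 to 0.992 in the other groups. The fibrinogen median ran from -4.91 to -1.90 when 1 array was left out.

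The treated groups shared a slide with each other. Between them A2m was higher in anti-IL6R grafts by 2.16 ± 0.81, Fgg by 1.98 ± 1.38, Lbp by 1.28 ± 0.54 and Cp by 1.26 ± 0.42, each without overlap of arrays. Fga and Fgb differed by 0.50 ± 0.99 and 0.75 ± 1.43 and Hp by -0.50 ± 0.38, all with overlap. Those 4 of 7 members compare with 11.9% of all genes higher without overlap and 14.3% lower, and the adjusted p was 0.9999 for each of the 7 (limma). No gene was called (0%), and 831 (3.4%) had an unadjusted p under 0.05, A2m at 0.0355 and Cp at 0.0215 among them. Without the second prednisolone array Fga differed by -0.33 and Fgb by -1.26, the opposite sign.

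Each treated group was also set against the low grafts. In anti-IL6R grafts A2m (1.36 ± 0.81), Cp (0.73 ± 0.42), Lbp (0.63 ± 0.54) and Hp (0.21 ± 0.38) were higher than in low grafts without overlap, 4 of 7 members against 15.4% of all genes higher and 23.9% lower, and Fga, Fgb and Fgg overlapped at -0.67 ± 0.99, -0.19 ± 1.43 and 0.20 ± 1.38. For Cp this holds for the probe that represents it, and 1 other tested probe overlapped. In prednisolone grafts Hp alone did not overlap with low, at 0.71 ± 0.38, 1 of 7 members against 14.8% of all genes that were higher and 16.8% lower. The rest had values below 0, from -0.52 ± 0.42 for Cp to -1.78 ± 1.38 for Fgg. In both comparisons limma called 0 genes (0%), with 753 (3.08%) and 1471 (6.01%) at an unadjusted p under 0.05, and no member was among those. The comparisons with high grafts share the high arrays, and those with low grafts the low arrays, so they are not independent of one another.

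**Figure D3:**
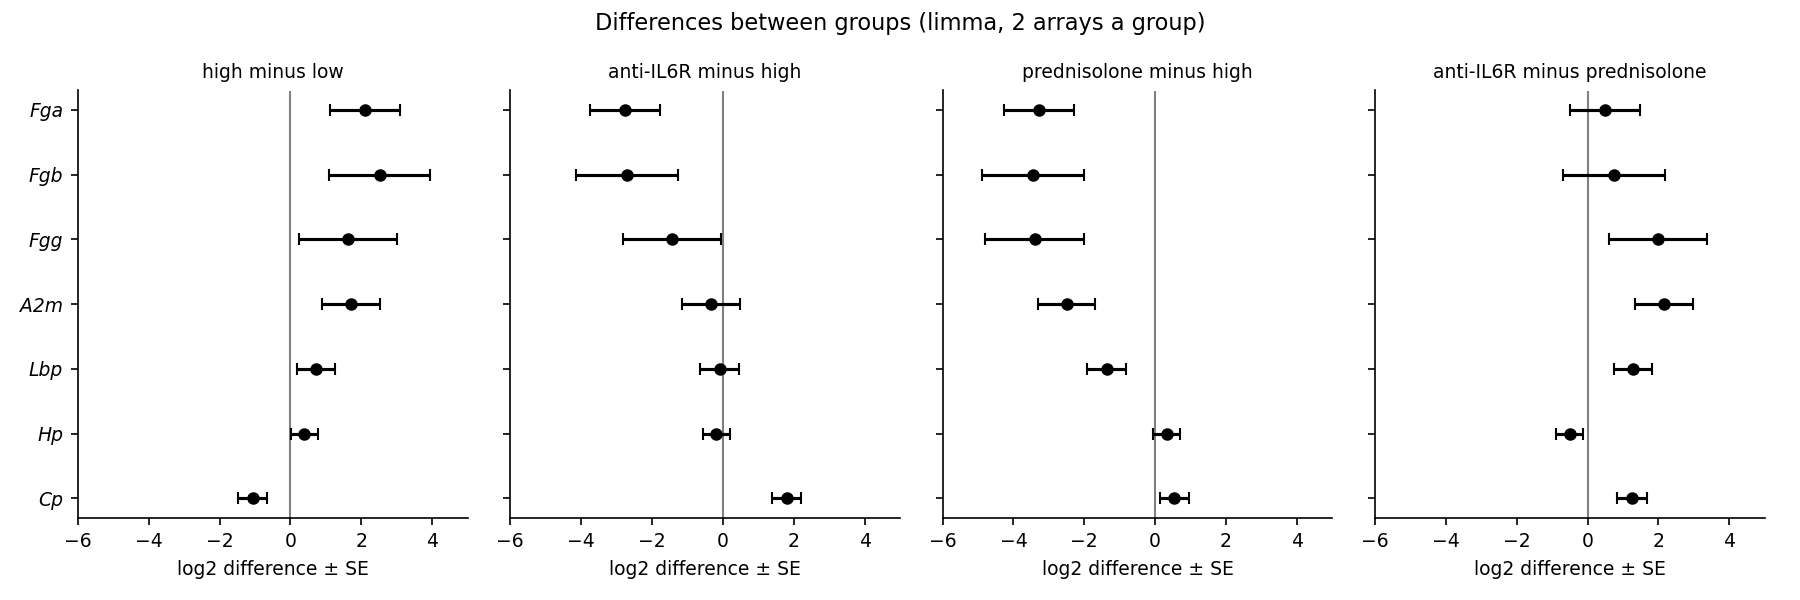
Log2 difference between group means (horizontal axis, point) with its limma standard error (bar) for the 7 tested members (vertical axis) in 4 comparisons of 2 against 2 arrays. Fibrinogen differences are above 0 in high minus low (2.10, 2.52 and 1.63) and below 0 in both treated groups against high, Cp lies on the other side of 0 in these 3 comparisons, and no difference passed the adjusted threshold.

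The levels of the fibrinogen genes were correlated from array to array. Over the 8 arrays Fga and Fgb had r = 0.94 (rho = 0.90, exact permutation p = 0.00154 for r and 0.00456 for rho), Fgb and Fgg r = 0.94 (rho = 0.74, exact permutation p = 0.00568 and 0.0458) and Fga and Fgg r = 0.90 (rho = 0.69, exact permutation p = 0.00627 and 0.0694). Of 21 relations among the 7 members, the r values of these were past the threshold after Benjamini-Hochberg adjustment (0.0162, 0.0264 and 0.0264), as were those of Fgg with Lbp (r = 0.91, rho = 0.83, adjusted exact permutation p = 0.0162), A2m with Lbp (r = 0.89, rho = 0.67, adjusted exact permutation p = 0.0264) and Fgb with Lbp (r = 0.83, rho = 0.55, adjusted exact permutation p = 0.0457). No rho was, with 0.0958 the lowest adjusted value. For every relation the permutations shuffled the 8 arrays freely, without regard to group or slide. A group or slide difference shared by both genes of a relation can therefore lower its p. The permutation p-values, adjusted or not, thus do not isolate covariation between arrays of the same group.

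These relations leaned on the extreme arrays. Without high replicate 2 and prednisolone replicate 2, r went to 0.75 for Fga with Fgb, 0.53 for Fga with Fgg, 0.53 for Fgb with Fgg, 0.74 for Fgg with Lbp and 0.32 for Fgb with Lbp, and without low replicate 1 and prednisolone replicate 2 it went to 0.42 for A2m with Lbp. Within the slide of untreated and the slide of treated grafts (4 arrays each, too few for a test) r was 0.997 and 0.92 for Fga with Fgb, 0.97 and 0.85 for Fga with Fgg, 0.95 and 0.88 for Fgb with Fgg, 0.94 and 0.97 for Fgg with Lbp, 0.77 and 0.97 for A2m with Lbp and 0.96 and 0.81 for Fgb with Lbp. Within an array Fga relative to Fgb varied over 2.35 log2 units, most between the 2 prednisolone arrays. That ratio uses 1 probe a gene, and the probes of Fgb themselves spanned 107-, 208- and 859-fold. It therefore cannot tell a difference between genes from one between probes. Cp had r of -0.39 to Fga over the 8 arrays (rho = -0.29, exact permutation p = 0.351 for r and 0.501 for rho), -0.25 to Fgb and -0.04 to Fgg. Its sign differed between slides, with r of -0.64, -0.66 and -0.45 among untreated and 0.74, 0.56 and 0.83 among treated grafts, and without the 2 farthest arrays r to Fgg was 0.41.

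Genes whose levels resembled a member over the 8 arrays were ranked by Pearson's r among the named genes well above background on all arrays that varied by at least 1 log2 unit (4003 for a member, 4001 for the fibrinogen mean). All share the same 8 arrays, so these are descriptions. Most like the fibrinogen mean were Osmr, the oncostatin M receptor subunit that pairs with gp130 (r = 0.98), Aldh1a2, a retinoic acid synthesis enzyme (0.98), and Sema4a, a semaphorin (0.98). Osmr ran from -0.23 on high replicate 2 to -2.54 on prednisolone replicate 2, with -1.04 on high replicate 1, -1.73 and -1.17 on the low, -1.34 and -1.64 on the anti-IL6R and -1.26 on the first prednisolone array, which is nearly the order of fibrinogen.

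The single fibrinogen genes gave mostly other names. For Fga they were Eepd1 (0.98), Ppl, which encodes periplakin (0.98), and Slco4a1, an organic anion transporter (0.97); for Fgb Ankrd22 (0.99), Prcp, a lysosomal carboxypeptidase (0.98), and Osmr (0.98); for Fgg Map1lc3a, an autophagosome protein (0.96), Clmp, an adhesion molecule (0.96), and Aldh1a2 (0.95). A2m was most like Lbp (0.89), then Slc18a1 (0.86) and Dtx4 (0.86), and Lbp most like Clmp (0.97), Fgg (0.91) and Poglut1 (0.91). Cp was most like Ctsk, the protease cathepsin K (0.98), the complement protease C1r (0.98) and Rftn1 (0.98), none of which was near a fibrinogen gene. Hp was nearest to Snx10 (0.95), the transcription factor Ets2 (0.94) and Zfand2a (0.94).

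**Figure D4:**
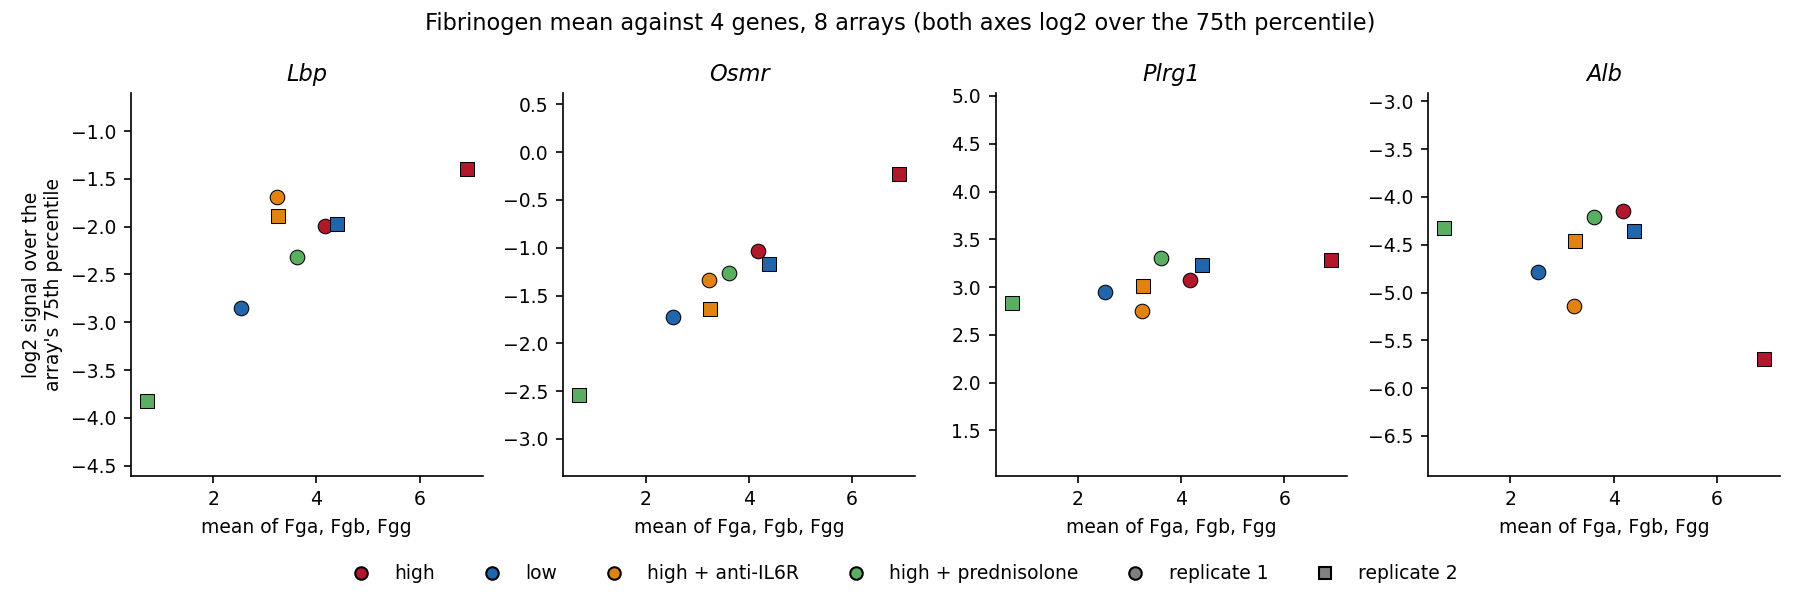
Mean log2 level of Fga, Fgb and Fgg on each of the 8 arrays (horizontal axis) against the log2 level of Lbp, Osmr, Plrg1 and Alb (vertical axes, all spanning the same number of log2 units), with colours for groups and shapes for replicates. Osmr and Lbp climb with fibrinogen from prednisolone replicate 2 (-2.54 and -3.82) to high replicate 2 (-0.23 and -1.39). The neighbouring gene Plrg1 stays between 2.75 and 3.30. Albumin is not well above background (-5.69) on high replicate 2, where fibrinogen is highest. Of 7 tested hepatocyte markers 6 are well above background on that array, so albumin does not stand for the list.

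Whole-graft RNA can hold other cells, so markers were read beside the members. Of 17 hepatocyte markers 8 were not well above background on any array (Tat, Cyp3a2, Cyp7a1, Ahsg, F9, Mug1, C8a and Serpina6) and 7 could be tested. The mean of those 7 was -2.33 and -2.99 in high, -1.80 and -1.91 in low, -2.12 and -1.87 in anti-IL6R and -2.50 and -2.19 in prednisolone grafts, and 6 of the 7 were well above background on high replicate 2. Alb, albumin itself, was at -4.14 on high replicate 1, not well above background on high replicate 2 and between -5.14 and -4.21 on the others. Tubule markers were well above background on every array, 10 of 10 for the proximal tubule and 8 of 8 for the distal nephron, and all 8 distal markers had a mean below that of low grafts in high grafts (median difference -1.52), the opposite sign to fibrinogen. The distal mean was 3.16 and 2.18 in high, 5.04 and 4.03 in low, 4.27 and 3.65 in anti-IL6R and 2.64 and 4.88 in prednisolone grafts. Proximal markers were lower in high than in low grafts for 7 of 10 (median -0.73) and higher in anti-IL6R than in high grafts for 8 of 10 (0.69), with means of 3.68 and 2.15 in high, 4.01 and 3.76 in low, 3.81 and 4.12 in anti-IL6R and 3.38 and 2.96 in prednisolone grafts, lowest on high replicate 2. The part of the tubule in the fibrinogen levels was not tested. Red cell markers, which bear on Hp, had 4 of 4 means below low in high grafts (median -0.75), and their mean level ran from -1.27 to 0.15 over the arrays. That mean joins markers that did not run together. Hbb and Alas2 were highest on the first prednisolone array, where Hp was highest, and lowest on the second (-1.26 and -1.41). Slc4a1 went the other way, lowest on the first prednisolone array (0.82) and highest on the second (3.55). The distal nephron mean was also lower on the first (2.64) than on the second (4.88). Whether Slc4a1 stood for red cells in these grafts was not tested. Epb42 was highest on the first low array (-3.42). The part of red cells in the Hp level was not tested.

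In high minus low and in anti-IL6R minus high, most monocyte, macrophage, T and NK cell markers had differences of the same sign as Cp. This sign was not particular to leukocyte markers. It was shared in the 2 comparisons by 8 and 8 of 8 distal nephron markers and by 7 and 8 of 10 proximal tubule markers. Of 7 hepatocyte markers, 5 and 7 shared it. Neutrophil markers were split in high minus low, 2 of 5 above 0 (median -0.01), and 5 of 5 were above 0 in anti-IL6R minus high. Csf3r among these, and Cd3e and Cd4 of the T and NK cell list, passed the filter through the anti-IL6R group alone. The filter therefore favoured values above 0 for them in anti-IL6R minus high. Of 9 tested monocyte and macrophage markers, 8 were lower in high than in low grafts (median -1.61) and 9 were higher in anti-IL6R than in high grafts (median 2.50), with 9 and 7 of them well above background on the high arrays. Of 12 T and NK cell markers 4 were well above background on both high arrays, 10 on both low, 12 on both anti-IL6R and 4 on both prednisolone arrays, and 7 were so on neither high array, which leaves their differences from high grafts without an exact size. The monocyte mean was -1.02 and -1.84 in high, -0.47 and 0.33 in low, 1.20 and 0.41 in anti-IL6R and 1.49 and -0.78 in prednisolone grafts. Csf1r, the macrophage colony-stimulating factor receptor, stood at -2.42 and -3.21, -1.03 and -0.43, -0.19 and -0.55 and -0.17 and -1.48 in the same groups. The T and NK cell mean was -5.56 and -5.68 in high, -3.89 and -3.75 in low, -3.10 and -3.46 in anti-IL6R and -3.38 and -5.31 in prednisolone grafts, with 4 and 5 of the 12 well above background on the high arrays and 4 on prednisolone replicate 2. Neutrophil markers, 5 of 10 tested, had means of -3.19 and -4.08 in high, -3.57 and -3.03 in low, -2.10 and -2.56 in anti-IL6R and -1.39 and -3.53 in prednisolone grafts. Their mean was highest on the array where Hp, which neutrophils store in granules, was highest. That mean joins markers that did not run together. S100a8, S100a9, Csf3r and Fcgr3a were highest on the first prednisolone array. Mmp9 was lowest on it (-3.81) and highest on the second prednisolone array (-1.88). The monocyte mean (1.49) and the mean of 2 tested platelet markers (-0.11) were highest on the first prednisolone array too. The T and NK cell mean was highest on the first anti-IL6R array (-3.10). The part of these cells in the levels of Cp and Hp was not tested.

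Other acute-phase genes were read for comparison. Of 20 tested positive acute-phase genes (26 on the array), 9 had a difference above 0 in high minus low, with a median of -0.41, 14 in anti-IL6R minus high (0.28), 6 in prednisolone minus high (-0.53), 19 in anti-IL6R minus prednisolone (0.73), 12 in anti-IL6R minus low (0.44) and 6 in prednisolone minus low (-0.57), and none was called in any of these (limma). Itih3, well above background on 3 arrays, passed the filter through the anti-IL6R group alone. The filter therefore favoured values above 0 for it in comparisons of that group with the others. Lcn2, the siderophore-binding lipocalin of injured tubules, stood at -1.93 and 0.31 in high and -3.92 and -2.82 in low grafts, a difference of 2.56 ± 0.97. Serping1, the C1 inhibitor, differed by -0.71 ± 0.23 and 0.61 ± 0.23 in the first 2 comparisons, and Hpx, the haem carrier hemopexin, by 1.69 ± 0.55 in anti-IL6R minus high. Vtn, vitronectin, was well above background on 1 of 2 high arrays and on both anti-IL6R arrays. Pzp, a relative of A2m, differed in high minus low by -0.69 ± 0.31 and Ambp, the alpha-1-microglobulin precursor, by 0.65 ± 0.30.

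Highest on high replicate 2 and lowest on prednisolone replicate 2, the pattern of Fga, Fgb, Fgg and Lbp, were 5 of those 20 genes, C3, C4bpa (not well above background on prednisolone replicate 2), Serpina3n, Lcn2 and Ambp, against 6.62% of all genes tested; this count and these names were chosen after the values were seen. Serpina3n, a protease inhibitor, stood at 1.97 and 4.70 in high, 0.96 and 2.88 in low, 2.41 and 2.73 in anti-IL6R and 3.35 and -0.33 in prednisolone grafts. C3, the central complement protein, was at 0.72 and 2.62, 0.74 and 0.72, 2.17 and 1.52 and 1.74 and -1.56. Crp, Itih4, Mug1, Mug2, Cfb and Fgl1 were not tested; Cfb was well above background on 7 arrays but lacked a usable spot on the other.

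Negative acute-phase genes, which the liver turns down, had 7 of 8 tested differences below 0 in high minus low (median -0.66), 7 of 8 above 0 in anti-IL6R minus high (0.42) and 4 of 8 above 0 in prednisolone minus high (-0.11), with none called (limma). In high minus low, Fetub, fetuin B, differed by -1.94 ± 1.06, Gc, the vitamin D-binding protein, by -0.996 ± 0.94, Serpinc1, antithrombin, by -0.81 ± 0.40 and Apoa2, an apolipoprotein, by -0.76 ± 0.57.

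Of 26 tested genes of the IL-6 family signal and acute-phase transcription factors, 12 were above 0 in high minus low (median -0.02), 13 in anti-IL6R minus high (0.07) and 10 in prednisolone minus high (-0.12), with none called (limma). Cntf, a ligand of the family, stood at 1.97 and 2.32 in high grafts and between 0.39 and 0.72 on the 6 other arrays, a difference of 1.67 ± 0.21 from low and of -1.56 ± 0.21 in anti-IL6R minus high (adjusted p = 0.209 and 0.146, limma). Cebpb, a C/EBP factor, differed by 1.20 ± 0.31 and -0.93 ± 0.31, Ptpn11, the phosphatase SHP2, by 0.63 ± 0.21 and -0.80 ± 0.21, and Il6st, which encodes gp130, by -0.60 ± 0.21 and 0.55 ± 0.21. Lifr, the LIF receptor, differed by -0.62 ± 0.18 in anti-IL6R minus high. Il6 itself, Osm and Il11 were not tested, being well above background on 1, 2 and 2 arrays. Il6r, named here as the target of the antibody, was at -1.53 and -1.47 in high, -1.17 and -1.22 in low, -0.81 and -1.56 in anti-IL6R and -0.50 and -1.81 in prednisolone grafts, with the prednisolone grafts spanning the others.

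Among 17 tested genes for fibrin formation, breakdown and receptors, 7 were above 0 in high minus low (median -0.39), 12 in anti-IL6R minus high (0.28) and 10 in prednisolone minus high (0.09), with none called (limma). Thbd, thrombomodulin, the endothelial brake on thrombin, stood at 1.22 and 1.0 in high, 2.39 and 2.40 in low, 2.62 and 2.04 in anti-IL6R and 1.75 and 2.05 in prednisolone grafts, which set the high arrays below all others (-1.28 ± 0.25 from low). Vwf, von Willebrand factor, differed from low by -1.62 ± 0.49. Itgav, an integrin subunit of fibrinogen receptors, differed by -0.63 ± 0.23 in anti-IL6R minus high. Itgam, the subunit of the leukocyte receptor for fibrinogen, also on the monocyte list, was well above background on 1 of 2 high arrays and on both anti-IL6R arrays.

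For iron, copper and haemoglobin, the field of Cp and Hp, 9 of 15 tested genes were above 0 in high minus low (median 0.20), 6 in anti-IL6R minus high (-0.29) and 6 in prednisolone minus high (-0.16), with none called (limma). Lrp1, a clearance receptor of the haem-hemopexin complex and of A2m, stood at -3.07 and -3.28 in high, -1.96 and -1.33 in low, -0.78 and -1.20 in anti-IL6R and -1.79 and -2.22 in prednisolone grafts. It differed by -1.53 ± 0.30 in high minus low and 2.19 ± 0.30 in anti-IL6R minus high, the same directions as Cp. Heph, hephaestin, the membrane-bound ferroxidase related to Cp, differed by -0.68 ± 0.32 and 0.95 ± 0.32, Fth1, ferritin heavy chain, by -0.58 ± 0.16 in the second and Hamp, hepcidin, by 1.03 ± 0.49 in the first.

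Of 6 tested genes that sense lipopolysaccharide with Lbp, 4 were above 0 in high minus low (median 0.02), and 5 in anti-IL6R minus high (0.61) and in prednisolone minus high (0.60), with none called (limma). Bpi, a neutrophil protein related to Lbp, differed by 0.98 ± 0.25 in anti-IL6R minus high, and Tlr2 and Tlr4 by 0.90 ± 0.66 and 0.78 ± 0.59. Cd14, the receptor that Lbp loads, was at 1.14 and 1.25 in high and 0.46 and 1.16 in low grafts, with overlap. Myd88, the adaptor of these receptors, differed by 0.06 ± 0.24 in high minus low.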

How the data were processed

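Whole-graft total RNA of 8 rat samples was measured on 1-colour Agilent arrays. The deposited files hold spot intensities that, per the file headers, come from version 9.5.1.1 of Feature Extraction and are already background-subtracted; the authors' deposited table holds the same intensities times 1 factor per array (99.6 to 99.7% of probes within 0.01 log2 units). Groups came from the labels. Control spots and flagged spots were dropped, and log2 signals were centred on each array's 75th percentile. A probe was tested if 1 or more groups had it well above background on each of their 2 arrays; 28686 passed and 11561 did not, and 765 lacked a usable spot on some array. The probe with the highest mean stood for a gene. A limma fit (3.58.1, R 4.3.3) of all 8 arrays, checked on simulated data, gave 6 comparisons, adjusted by Benjamini-Hochberg over 24462 genes at 0.05. With 2 against 2 arrays an exact permutation test cannot go below 0.33. The labels do not say whether replicates are separate animals, so p-values measure the spread between these samples. Members and gene lists were chosen with earlier results of these data known. From each list the genes named had the smallest p in high minus low or anti-IL6R minus high, and others are named for likeness; 1 gene that this rule names is not reported here. Precision is limited by the number of arrays. Motifs were searched in RefSeq windows with Python 3.11. Alternatives changed background correction, scaling, filter, probe, variance prior, block and samples.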

Additional observations from a re-analysis of the deposited data

How the results depend on the processing

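No member was called under any alternative run. The counts of genes called, 0 in every comparison, were 3 (high minus low), 7 (anti-IL6R minus high), 4 (prednisolone minus high), 2 (anti-IL6R minus prednisolone) and 4 (anti-IL6R minus low) with quantile normalization, 1 in each of the first 2 comparisons with median scaling and with the authors' deposited values, and 28, 169 and 8 without the prednisolone group in high minus low, anti-IL6R minus high and anti-IL6R minus low. With 1 array left out, a lone array then being assumed to vary like the other groups, counts ran from 0 to 39 for high minus low (39 without high replicate 1), 0 to 169 for anti-IL6R minus high, 0 to 224 for prednisolone minus high, 0 to 130 for anti-IL6R minus prednisolone, 0 to 8 for anti-IL6R minus low and 0 to 151 for prednisolone minus low, the highest of the last 5 without prednisolone replicate 1. For comparisons without prednisolone grafts, dropping either prednisolone array gave the same counts as dropping that whole group. A lone array adds nothing to the pooled spread, so for those comparisons these are the same fit. The cause of the higher counts was not tested.

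The fibrinogen median ran, with 1 array left out, from 0.82 to 3.37 for high minus low, -3.98 to -1.42 for anti-IL6R minus high, -4.91 to -1.90 for prednisolone minus high, -0.33 to 2.76 for anti-IL6R minus prednisolone (below 0 without prednisolone replicate 2), -1.06 to 0.69 for anti-IL6R minus low (above 0 without low replicate 2) and -2.95 to -0.27 for prednisolone minus low. Of 801 member values under an alternative, 17 changed sign, 16 of them with 1 array left out. The ranges with 1 array left out, where the sign turned, were -2.97 to 0.12 for Fgg (above 0 without high replicate 2), -0.78 to 0.10 for A2m (high replicate 1) and -0.39 to 0.21 for Lbp (high replicate 2, and 0.0037 without anti-IL6R replicate 2) in anti-IL6R minus high. They were -0.26 to 0.90 for Hp in prednisolone minus high and -1.08 to 0.073 in anti-IL6R minus prednisolone (prednisolone replicate 1), and in the latter -0.33 to 1.33 for Fga and -1.26 to 2.76 for Fgb (prednisolone replicate 2). In anti-IL6R minus low they were -1.45 to 0.11 for Fga and -1.06 to 0.69 for Fgb (low replicate 2) and -0.94 to 1.35 for Fgg (low replicate 1, and -0.040 without anti-IL6R replicate 2), and Fgb was at 0.056 with its dimmest probe. In prednisolone minus low they were -2.95 to 1.07 for Fgb and -1.40 to 0.10 for Lbp (prednisolone replicate 2) and -1.86 to 0.26 for A2m (low replicate 2, and 0.037 without prednisolone replicate 2). No scaling or filter alternative turned a member. Normexp background correction moved the median of all genes in anti-IL6R minus high from -0.09 to -0.22.

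The labels do not say whether replicate numbers pair the arrays. Deviations of same-numbered arrays correlated from -0.35 to 0.37 between groups, which with 2 arrays a group cannot settle it. The fit with the replicate block called 0 genes in all 6 comparisons, as did the main fit. Searching motifs on the strand of the gene alone left the counts of members with a match as they were, while the share of all windows went from 11.3 to 5.69% for the type II IL-6 response element, 5.92 to 2.94% for NF-kB and 2.33 to 1.16% for C/EBP.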
